A study of Mus musculus with 7 samples.

Results

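The genes of the NF-kappaB subunits and of their inhibitors were followed in naive CD8 T cells with and without the kinase Lck. The members were the array rows, control spots left out, whose gene name was one of Nfkb1, Nfkb2, Rel, Rela, Relb, Nfkbia, Nfkbib, Nfkbie, Nfkbiz or Tnfaip3. They are 10 of the 34797 gene names on the array and have 15 of its 55681 probes. Of these members 9 were measured, with 14 probes bright enough to test (well above background on at least 3 arrays), and Rel was not. All mice carried the OT-1 T cell receptor transgene (OT-1het in the labels) and were Rag-/-, so that the OT-1 receptor, which recognises an ovalbumin peptide, was the only receptor their T cells could make. The WT group held 3 samples. The Lck-off group held 4 samples from mice that were also Lck-/- and had lived on a knocked-in, doxycycline-dependent Lck, which was shut down by 7 days on a diet without the drug. Cells came from lymph nodes, were not activated, and were sorted as CD8b+ and CD44low. No Lck-/- mice still on doxycycline were measured and no source used here gives the diet of the WT mice, so effects of genotype, diet and loss of Lck cannot be told apart. Neither the promoter that drives the inducible Lck nor the ages of the mice are given there. The series design calls them biological replicates, but no label says that each came from 1 mouse, so p-values measure the spread between these samples.

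NF-kappaB is a family of dimeric transcription factors made from the products of Rela, Relb, Rel, Nfkb1 and Nfkb2. In resting cells the IkappaB proteins hold the dimers in the cytoplasm, and the IKK kinase complex marks these inhibitors for destruction when a receptor signals. In T cells the receptor reaches IKK through Lck, protein kinase C theta and a complex that holds Bcl10 and Malt1, and the genes of several inhibitors are themselves targets of NF-kappaB, which closes a negative feedback loop. Tnfaip3 encodes A20, a ubiquitin-editing enzyme that limits signalling to IKK.

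Promoter sequences of 3 inhibitor genes are printed because they hold matches to kappaB sites, the sequences that NF-kappaB dimers bind. Each stretch is the 250 bases before the start of the gene in RefSeq on GRCm38.p6, 5′ to 3′ on the strand of the gene. Capitals mark matches to the 10-base kappaB consensus, searched on both strands. Nfkbie lies on the plus strand at chr17:45555450-45555699, Nfkbia on the minus strand at chr12:55492648-55492897, and the Tnfaip3 entry with matches, 1 of 2, on the minus strand at chr10:19015411-19015660.
Nfkbie promoter: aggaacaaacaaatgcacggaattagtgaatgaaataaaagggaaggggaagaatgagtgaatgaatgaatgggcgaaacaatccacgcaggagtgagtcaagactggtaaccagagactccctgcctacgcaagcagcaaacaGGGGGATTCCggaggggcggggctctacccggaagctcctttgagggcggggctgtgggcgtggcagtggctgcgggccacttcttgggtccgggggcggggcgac
Nfkbia promoter: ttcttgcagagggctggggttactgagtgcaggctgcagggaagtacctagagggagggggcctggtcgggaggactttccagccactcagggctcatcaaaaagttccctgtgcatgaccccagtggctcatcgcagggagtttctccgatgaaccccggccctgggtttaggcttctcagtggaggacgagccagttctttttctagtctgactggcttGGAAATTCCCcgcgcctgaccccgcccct
Tnfaip3 promoter: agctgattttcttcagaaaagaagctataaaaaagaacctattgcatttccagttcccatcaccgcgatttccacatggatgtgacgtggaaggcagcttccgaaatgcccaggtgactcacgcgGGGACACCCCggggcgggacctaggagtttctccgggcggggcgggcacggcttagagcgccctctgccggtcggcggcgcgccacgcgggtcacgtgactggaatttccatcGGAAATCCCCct

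The Nfkbie promoter held 1 match, from 106 to 97 bases before the start. The Nfkbia promoter held 1 match, from 29 to 20 bases before the start, and the Tnfaip3 promoter held 2, the nearer at 12 to 3 bases. Promoters of 7 of the 10 members were in the RefSeq table, and 5 of these members, Nfkb2, Rel, Nfkbia, Nfkbie and Tnfaip3, had at least 1 match, while Rela and Nfkbib had none. Counted by entry, as a gene can have more than 1, 7 of the 10 member entries held a match. Of all 32851 promoter entries of this length 7.25% held a match. Matches on the 2 strands can overlap, as they do in Nfkb2 and Rel, and a match is a description of the letters, not a bound site.

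Values were measured with 60-base probes. Those of Nfkbia and Nfkb2 are shown because their genomic span exceeds the probe, so that each covers the join between exons and reads spliced RNA. A probe of Nfkbib that is not its brightest, at base 694, also spans more, 1396 bases, and is not shown. The Nfkbia probe spans chr12:56590945-56591440 on the minus strand and the Nfkb2 probe spans chr19:46386146-46386285 on the plus strand (mm9, as the array files give them).
Nfkbia probe: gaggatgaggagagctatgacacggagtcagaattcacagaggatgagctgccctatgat
Nfkb2 probe: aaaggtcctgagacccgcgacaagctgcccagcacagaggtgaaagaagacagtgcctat

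Each sample was hybridised to 1 array, and levels are log2 intensities relative to the 75th percentile of the array, so levels of different probes are not compared. Differences are Lck-off minus WT on this log2 scale, and ± marks the SD within a group (3 WT or 4 Lck-off arrays). A gene was called at an adjusted p under 0.05 by limma, fitted to all 18231 measured genes, whose median difference was -0.01. The 75th percentiles ranged from 208 to 243 in intensity, between 42.5% and 48.6% of probes were well above background, and the number of arrays limits the precision. The 10 T cell markers were all measured and their summed linear level was 2088 to 2216 in WT against 2144 to 2286 in Lck-off. Lck itself fell by 0.37 (adjusted p = 0.0493), with all 4 Lck-off arrays below the WT arrays. Of the 7 fits with 1 array left out only that without Lck-off 2 kept the Lck call (adjusted p = 0.0149, otherwise 0.0982 to 0.154), and the labels do not say whether the 1 Lck probe lies in the disrupted part or is shared with the inducible copy. In bulk RNA, fewer cells of a type and less RNA per cell cannot be told apart.

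Of the 9 measured members 1 was called, Nfkbie, which was higher in Lck-off cells, and 0 were lower. Over all genes 8.38% were called, 3.8% higher and 4.57% lower, so that 1 of 9 is near the background and says nothing particular of the members. At an unadjusted p under 0.05 there were 3 members, Nfkbie, Relb and Nfkbia, against 21.5% of all genes. The groups did not overlap for Nfkbie and Relb, both higher in Lck-off, against 21.8% of all genes, 9.8% higher and 12% lower. The median difference of the 9 members was 0.16, and 7 of the 9 were above 0. The share above 0 over all genes is not given here, and the signs of Nfkb2, Nfkbib and Nfkbiz turned under some alternatives.

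**Figure D1:**
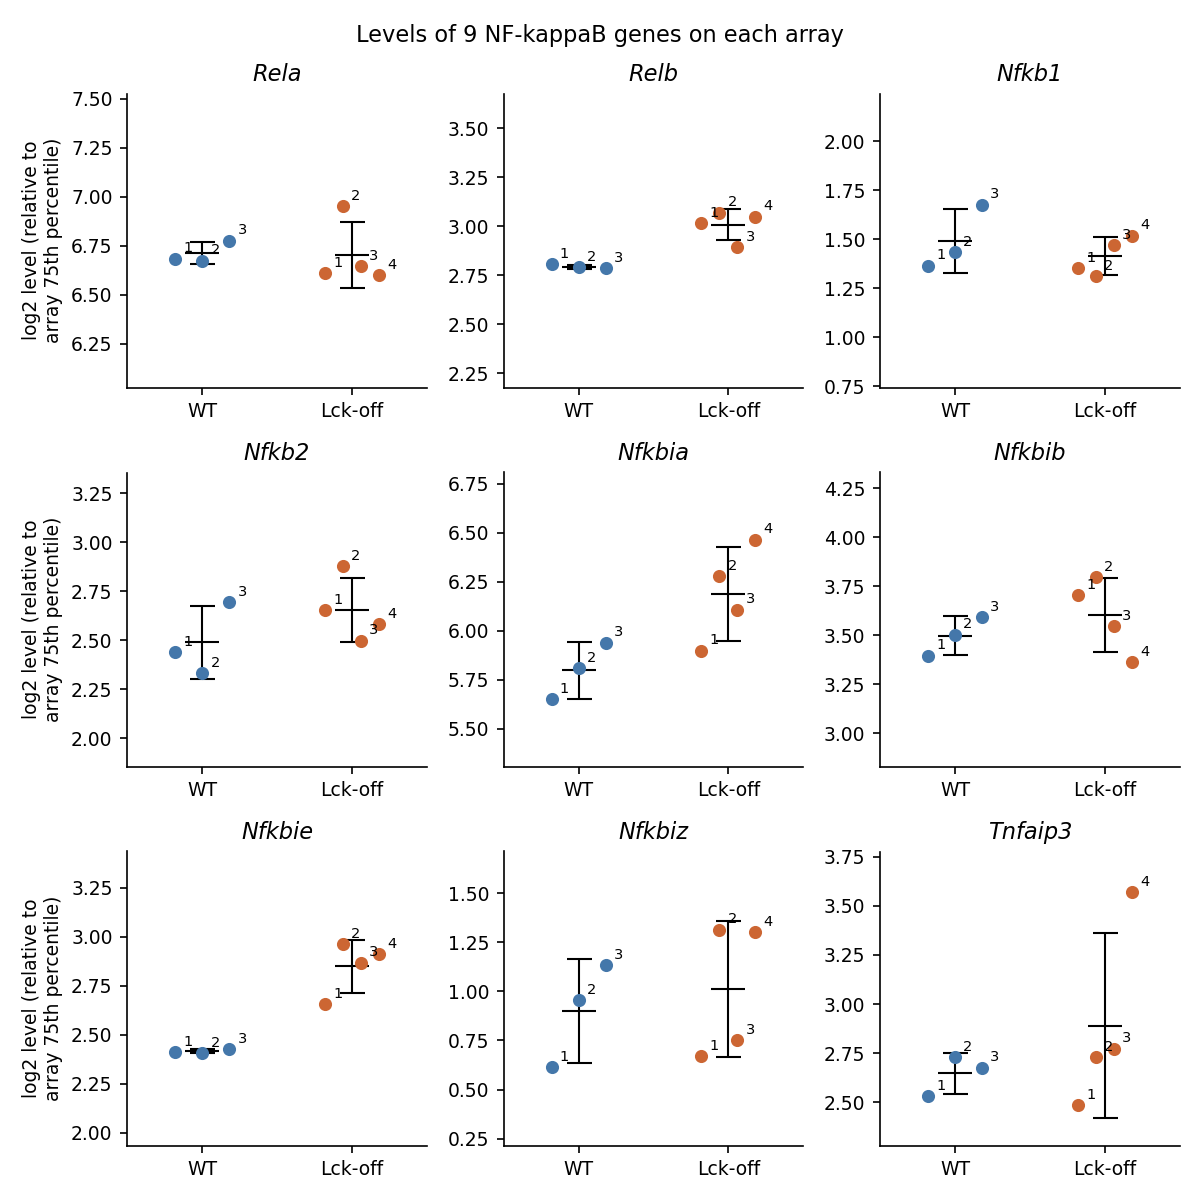
Levels of the 9 measured members on each array, in log2 relative to the 75th percentile of the array, with 1 point per array (numbered by replicate, WT blue, Lck-off orange), the mean as a bar and the SD as whiskers. All panels cover the same number of log2 units, and the groups are apart for Nfkbie and Relb, while 1 high array stands out for Tnfaip3 and for Rela.

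Among the subunits that carry a transactivation domain, Rela encodes p65, the main activating partner of the canonical route. Rela read 6.68, 6.67 and 6.78 on the WT arrays and 6.61, 6.95, 6.64 and 6.60 on the Lck-off arrays. The Lck-off arrays lay on both sides of the WT range. The mean was 6.71 ± 0.06 in WT against 6.70 ± 0.17 in Lck-off, a difference of -0.01 (95% confidence interval -0.25 to 0.23, adjusted p = 0.972). Its sign turned without WT 3, Lck-off 1, Lck-off 3 or Lck-off 4, with differences of 0.02, 0.02, 0.01 and 0.02.

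Relb encodes the activating subunit of the non-canonical route and is itself a kappaB target. Its brightest probe, at base 1993 of the transcript, read 2.81, 2.79 and 2.78 in WT against 3.02, 3.07, 2.89 and 3.05 in Lck-off. All 4 Lck-off arrays lay above all 3 WT arrays. The difference was 0.21 (SE 0.07, 95% confidence interval 0.05 to 0.38), and it did not pass the test (adjusted p = 0.126). A second probe, at base 1942, overlaps the first by part of its length and differed by 0.19 (adjusted p = 0.246 at the probe level). The third, at base 785 of another transcript, read -2.22 to -1.52 over all arrays and differed by -0.07 (adjusted p = 0.884), and the mean of all 3 probes differed by 0.11. Over all probes 7.33% were called at the probe level.

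Rel encodes c-Rel, a subunit prominent in lymphocytes, and the array held 1 probe for it. On none of the 7 arrays was that probe well above background, with raw intensities of 2.89 to 8.77. Only 15 of its 60 bases are mapped in the files, at chr11:23641729-23641743 (mm9). No level of Rel can be given, and the reading does not show that the RNA was absent.

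The remaining subunits are made as precursors, p105 from Nfkb1 and p100 from Nfkb2, that are processed to the DNA-binding p50 and p52 and act as inhibitors while unprocessed. Nfkb1 read 1.37, 1.43 and 1.68 in WT against 1.35, 1.31, 1.47 and 1.52 in Lck-off, and the groups overlapped. The difference was -0.08 (SE 0.10, 95% confidence interval -0.31 to 0.16, adjusted p = 0.742) and turned to 0.01 without WT 3, the highest array. Its second probe, at base 4056, differed by -0.09 (adjusted p = 0.642 at the probe level). Nfkb2 read 2.44, 2.33 and 2.70 in WT against 2.65, 2.88, 2.50 and 2.58 in Lck-off. WT 3 lay above 3 of the 4 Lck-off arrays. The difference for Nfkb2 was 0.16 (SE 0.12, 95% confidence interval -0.13 to 0.46, adjusted p = 0.534).

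Among the IkappaB inhibitors, Nfkbie encodes IkappaB epsilon, which binds dimers of p65 and c-Rel in lymphocytes and is induced by NF-kappaB. Its probe, at chr17:45700000-45700059 on the plus strand (mm9), read 2.41, 2.41 and 2.43 in WT against 2.66, 2.96, 2.87 and 2.91 in Lck-off. The WT arrays were almost equal, and the lowest Lck-off array, Lck-off 1, was still above them. Nfkbie rose from 2.42 ± 0.01 to 2.85 ± 0.13, by 0.43 (SE 0.09, 95% confidence interval 0.23 to 0.64) or 1.35-fold, with an adjusted p of 0.0259. The call did not survive the loss of most single arrays. Adjusted p was 0.0791, 0.0928 and 0.0770 without WT 1, WT 2 and WT 3, and 0.0568, 0.0776 and 0.0800 without Lck-off 2, Lck-off 3 and Lck-off 4. Without Lck-off 1 it was 0.0101. The difference itself stayed between 0.40 and 0.50 over these 7 repeats.

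The arrays lay in 2 rows of 1 slide, with WT 3, Lck-off 2 and Lck-off 3 in row 1 and the others in row 2. With the row as a block Nfkbie differed by 0.42 (adjusted p = 0.0460). Within row 1 it differed by 0.49 (adjusted p = 0.341) and within row 2 by 0.37 (adjusted p = 0.316), and in each row all Lck-off arrays were above all WT arrays. The call also ended with array median scaling (adjusted p = 0.158) and with no filter on dim probes (adjusted p = 0.134), at differences of 0.42 and 0.43. In the authors' deposited log2 values the difference was 0.45 (adjusted p = 0.0133).

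**Figure D2:**
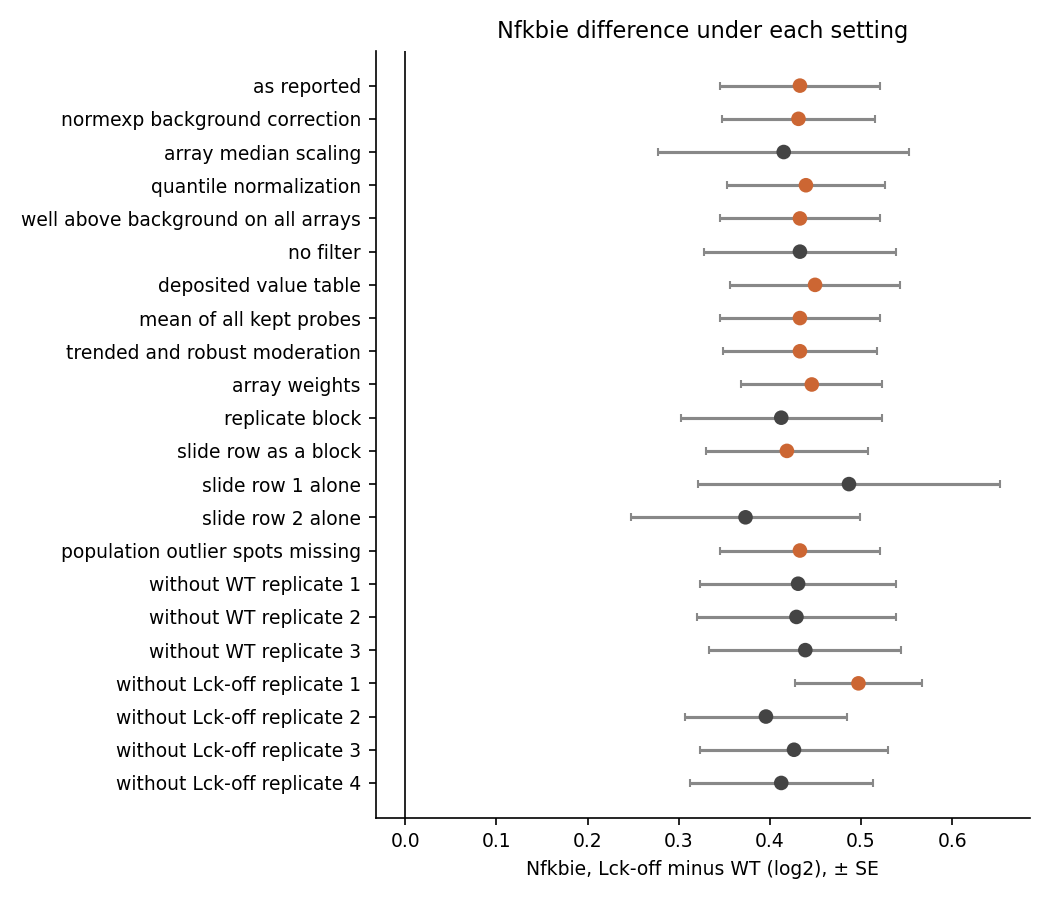
Difference of Nfkbie, Lck-off minus WT in log2, with its SE as whiskers, as reported and under 21 other settings, orange where the adjusted p is under 0.05. Every value lies between 0.37 and 0.50, while the call is kept in 9 of the 14 settings that do not leave out 1 array in turn and in 1 of the 7 that do.

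Nfkbia encodes IkappaB alpha, the classical feedback inhibitor, which is rebuilt within a short time after each activation. It read 5.65, 5.81 and 5.94 in WT against 5.90, 6.28, 6.11 and 6.46 in Lck-off. Of the Lck-off arrays only Lck-off 1 lay below the highest WT array. The mean was 5.80 ± 0.15 in WT against 6.19 ± 0.24 in Lck-off. The difference of 0.39 (SE 0.14) had an interval of 0.05 to 0.73 and did not pass the test (adjusted p = 0.175). Within the slide rows Nfkbia differed by 0.25 and 0.45.

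Nfkbib encodes IkappaB beta, which is less subject to feedback. It read 3.40, 3.50 and 3.59 in WT against 3.70, 3.80, 3.55 and 3.36 in Lck-off. Lck-off 4 was the lowest and Lck-off 2 the highest of all 7 arrays. The difference was 0.10 (95% confidence interval -0.17 to 0.38, adjusted p = 0.700). Its 3 probes did not share a direction, with 0.10 at base 1084, 0.10 at base 694 and -0.23 at base 1885, and none was called (adjusted p = 0.716, 0.750 and 0.440 at the probe level).

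Nfkbiz encodes IkappaB zeta, a nuclear member of the family that is induced early and helps transcription of some secondary targets. It read 0.61, 0.96 and 1.13 in WT against 0.67, 1.31, 0.75 and 1.30 in Lck-off. The Lck-off arrays fell into a low and a high pair, with Lck-off 2 and Lck-off 4 high. The difference was 0.11 (SE 0.21, 95% confidence interval -0.38 to 0.60, adjusted p = 0.836) and turned to -0.03 without WT 1.

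**Figure D3:**
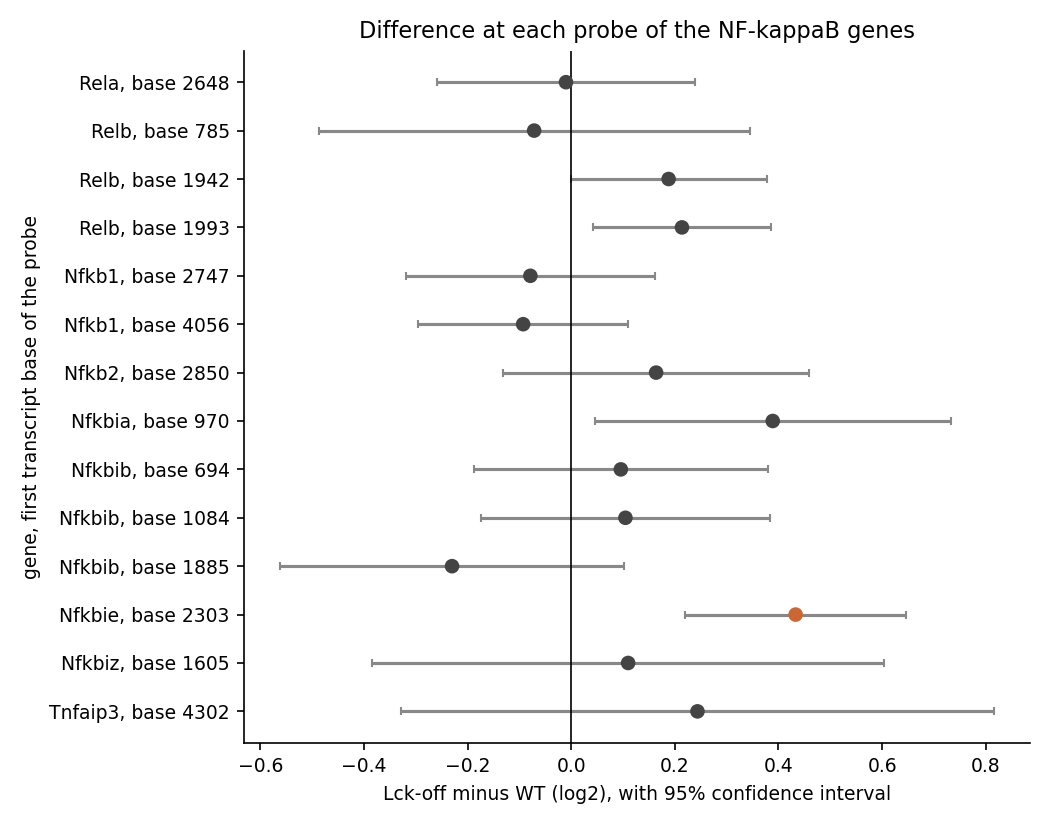
Difference at each of the 14 member probes bright enough to test, Lck-off minus WT in log2, with the 95% confidence interval as whiskers and the first base of the probe in its transcript beside the gene. Only the Nfkbie probe is called (orange), and the intervals of Nfkbia and of the Relb probe at base 1993 also lie above 0.

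Tnfaip3, the A20 gene, read 2.53, 2.73 and 2.68 in WT against 2.49, 2.73, 2.77 and 3.57 in Lck-off. Lck-off 4 alone was high, and the other Lck-off arrays covered the WT range. The raw intensity was 2760 on Lck-off 4 and 1238 to 1660 on the other Lck-off arrays. The difference was 0.24 (SE 0.24, 95% confidence interval -0.33 to 0.81, adjusted p = 0.658), and without Lck-off 4 it was 0.02 (adjusted p = 0.965).

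Gadd45b, Junb and Tnf, early response genes among the kappaB targets chosen after their values were seen, were also high on Lck-off 2 and Lck-off 4. Not all such genes of the list were. On Lck-off 2 Ier2 read 2.28, below 2.39 and 2.49 on WT 2 and WT 3. Ier3 read -1.11 there, below -0.62 on WT 3. Gadd45b, a stress-induced survival gene, read 0.74, 1.09 and 1.67 in WT against 0.97, 2.90, 1.85 and 3.23 in Lck-off. Junb, an AP-1 subunit gene, read 0.40, 1.36 and 1.63 in WT against 0.81, 1.87, 1.10 and 2.27 in Lck-off. The cytokine gene Tnf read 0.00, 0.98 and 1.24 in WT against 0.84, 1.99, 1.39 and 2.28 in Lck-off. In each of these genes, as in Nfkbia, WT 1 was the lowest WT array, WT 3 the highest, Lck-off 1 the lowest Lck-off array and Lck-off 4 the highest. None was called (adjusted p = 0.319 for Gadd45b, 0.698 for Junb and 0.278 for Tnf). The part of these differences between arrays of 1 group in the Nfkbia, Nfkbiz and Tnfaip3 values was not tested.

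**Figure D4:**
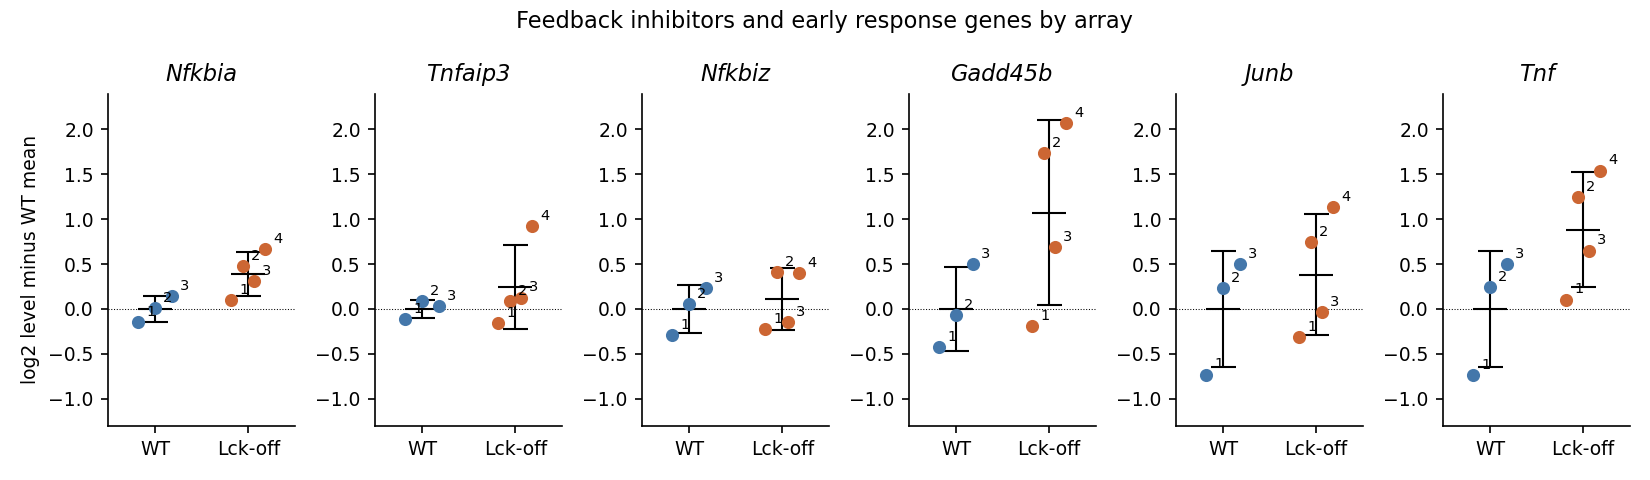
Log2 level minus the WT mean on each array (numbered points, WT blue, Lck-off orange) for Nfkbia, Tnfaip3, Nfkbiz, Gadd45b, Junb and Tnf, with the mean as a bar and the SD as whiskers, all on 1 scale. Lck-off 4 is the highest array for 5 of the genes and Lck-off 2 for Nfkbiz, while Lck-off 1 is the lowest Lck-off array for all of them.

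Genes with a profile most like that of Nfkbie over the 7 arrays, measured as the root mean square difference of levels centred on their means, were Ftsjd2 (now Cmtr1, an RNA cap methyltransferase gene, 0.0287), Etv6 (an ETS family repressor gene, 0.0398) and E130303B06Rik (now Enkd1, 0.0518). The likeness takes in the gap between the groups, so a difference near that of Nfkbie follows from the choice, and the p-values add no evidence. Ftsjd2 differed by 0.44 (adjusted p = 0.0230), Etv6 by 0.42 (adjusted p = 0.0617) and E130303B06Rik by 0.43 (adjusted p = 0.0155). Without WT 1, WT 2, WT 3, Lck-off 3 or Lck-off 4 Ftsjd2 was not called (adjusted p = 0.0688 to 0.0788), nor was E130303B06Rik without WT 2, WT 3 or Lck-off 4 (adjusted p = 0.0544 to 0.0674).

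Upstream of the members, 1 of 16 measured genes of the route from the T cell receptor to IKK was lower and 0 were higher, with a median of 0.05. That is 6.25%, against 8.38% called over all genes, and is no result about the route. Malt1, the protease and scaffold partner of Bcl10, read 3.81, 3.81 and 3.93 in WT against 3.36, 3.10, 3.29 and 3.14 in Lck-off. The groups were well apart. Malt1 fell by 0.63 (SE 0.09, adjusted p = 0.00555), a call that ended with array median scaling (adjusted p = 0.0662) and within the slide rows, where Malt1 differed by -0.73 and -0.56. Its partner Bcl10 did not pass the test, with a difference of 0.04 (adjusted p = 0.833). Of the IKK subunits, Ikbkb, the catalytic subunit of the canonical route, differed by -0.22 (adjusted p = 0.164) with no overlap between groups, Chuk by 0.06 (adjusted p = 0.756) and Ikbkg, the regulatory subunit, by 0.08 (adjusted p = 0.670). Bcl10 and these 3 genes were chosen after their values were seen.

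For the non-canonical route and the turnover of IkappaB, 11 of 12 genes were measured and 0 passed by limma (1 at an unadjusted p under 0.05), with a median of 0.02. The gene nearest to passing was Birc3 (0.26, adjusted p = 0.218), a ubiquitin ligase gene that is also a kappaB target, and Map3k14, which encodes the kinase NIK of this route, differed by 0.20 (adjusted p = 0.274) with no overlap. Both were chosen after their values were seen. Of 11 other IkappaB-like and Rel-associated genes 0 passed by limma, with a median of -0.10. At an unadjusted p under 0.05 there were 4, against 21.5% of all genes. These were Nkrf (-0.38), Tonsl (-0.35), Commd1 (-0.30) and Pdlim2 (0.20), with adjusted p of 0.0770 to 0.179. In these 4 the groups did not overlap, or 36.4% of the list against 21.8% of all genes. The nuclear inhibitor family genes Bcl3 and Nfkbid differed by -0.18 (adjusted p = 0.803) and 0.14 (adjusted p = 0.710). All 6 were also chosen after their values were seen.

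Of 14 measured genes of ubiquitin editing that work with A20, 1 was higher and 1 was lower, or 14.3% against 8.38% over all genes, with a median of 0.02. Both are adaptors of the same family that bind ubiquitin and recruit A20, and they went opposite ways. Tnip1, or ABIN1, read 5.77, 5.96 and 5.88 in WT against 6.31, 6.41, 6.23 and 6.39 in Lck-off. It rose by 0.46 (SE 0.08, adjusted p = 0.0136), and its second probe rose by 0.48. Without WT 1 the adjusted p of Tnip1 was 0.0504. Tnip2, or ABIN2, read 1.25, 1.12 and 1.37 in WT against 0.32, 0.54, 0.40 and 0.38 in Lck-off. It fell by 0.84 (SE 0.09, adjusted p = 0.00199), and its second probe fell by 0.78. In neither gene did the groups overlap. Within the slide rows Tnip1 differed by 0.44 and 0.48 and Tnip2 by -0.91 and -0.84, no longer called there. The call of Tnip1 also ended with array median scaling (adjusted p = 0.170) and with no filter (adjusted p = 0.0874). The third member of the family, Tnip3, chosen after its values were seen, was well above background on 0 of 3 WT and 3 of 4 Lck-off arrays, so that it was measured through the Lck-off arrays alone, and it was not called. Without Tnip3 the median of the list was 0.00.

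**Figure D5:**
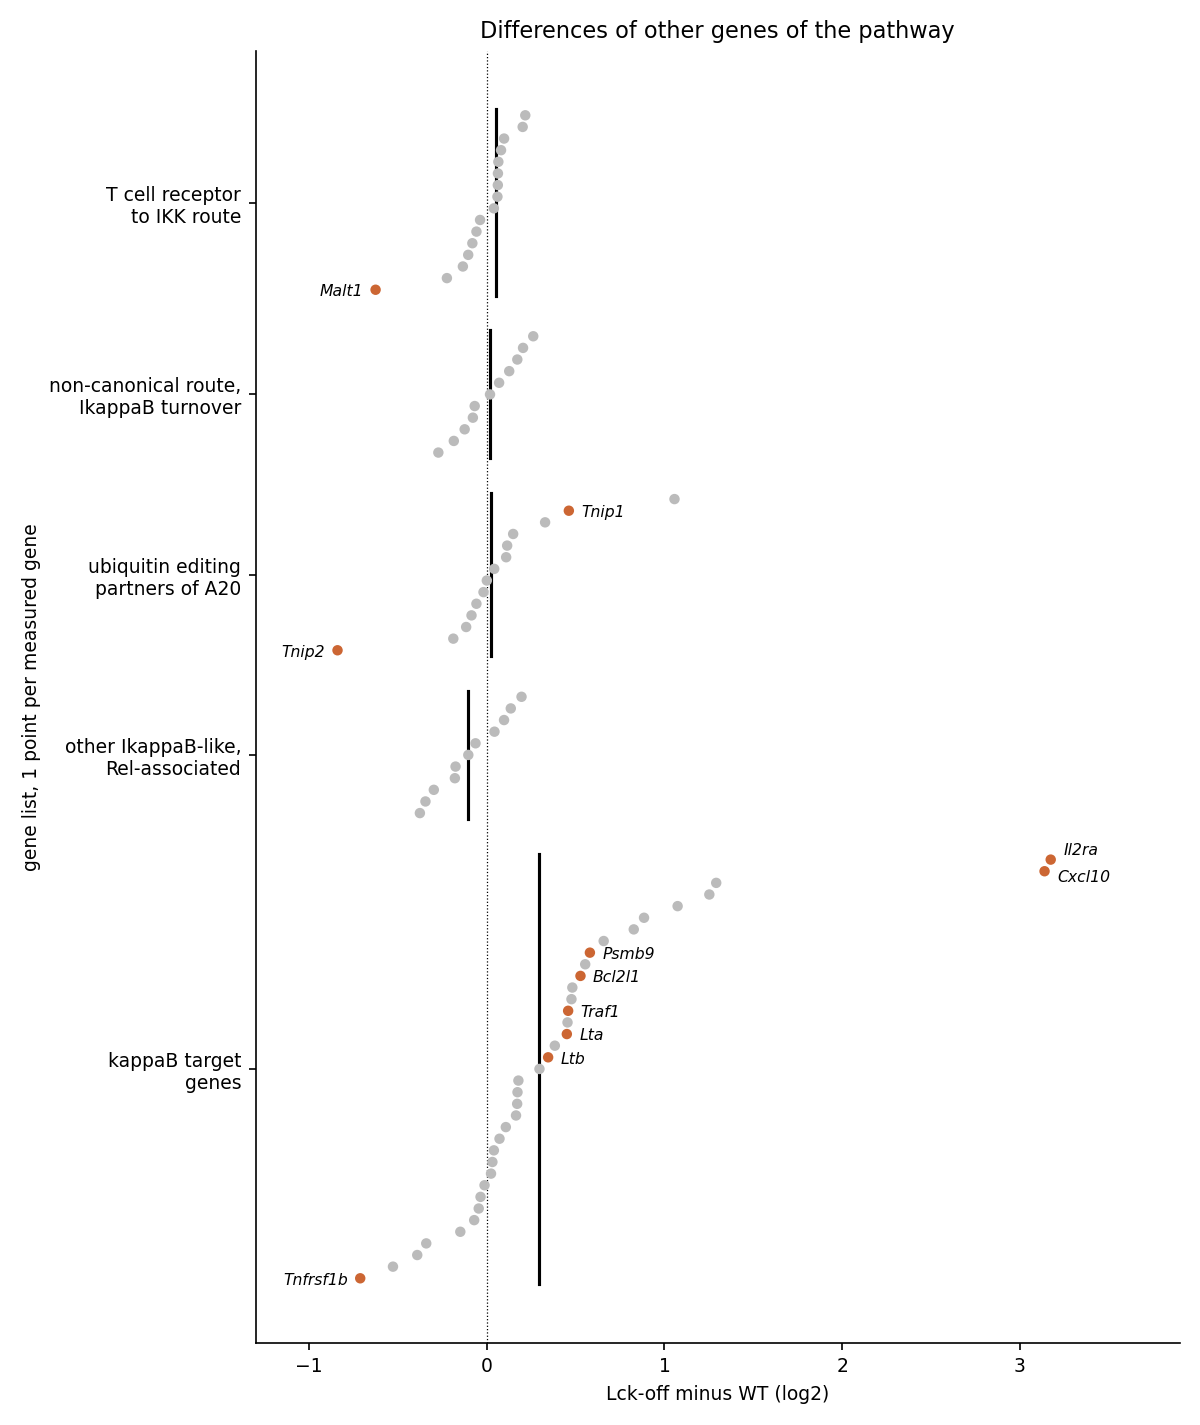
Differences of the measured genes of 5 further lists, Lck-off minus WT in log2, with 1 point per gene sorted within its list, called genes in orange with their names, and the list median as a vertical line. The medians of the first 4 lists lie between -0.10 and 0.05 and that of the kappaB targets at 0.30; the points of Il2ra, Ccl3 and Tnip3 are fitted differences from a WT level below the background limit.

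Of 37 measured kappaB target genes 7 were higher and 1 was lower in Lck-off, or 21.6%, with a median of 0.30, against 8.38% and -0.01 over all genes. Il2ra and Ccl3 were well above background on Lck-off arrays alone and could be measured only by being higher there. The other 35 targets were well above background on at least 1 array of each group. Of these 6 were higher and 1 was lower, or 20%, with a median of 0.18, against 8.05% of the 18074 such genes. Among the 35, Tnfaip2 was well above background on only 1 of 3 WT arrays and Ccl4 and Ifng on 2. The list holds genes that other pathways induce too, and the interferon-induced gene Mx1, which is in none of these lists and was chosen after its values were seen, rose by 4.52 (SE 0.25, adjusted p = 0.000305) in the same arrays. Of the targets that rose, Psmb9 and Cxcl10 are also induced by interferons, and the part of interferon in these counts was not tested. Il2ra, the alpha chain of the IL-2 receptor, stayed below the background limit on all 3 WT arrays, so its fold is uncertain. With each WT level set to the faintest probe well above background on that array, the Lck-off mean was 7.14-fold higher. That floor is the lowest reading that passed on the array, so 7.14 is not a lower bound. The Il2ra level was -1.41, -0.85, -0.75 and -1.02 on the Lck-off arrays. With normexp background correction its fitted difference was 1.00 in place of 3.17. The chemokine gene Cxcl10 read -2.96, -0.99 and -1.27 in WT against 1.36, 0.74, 1.38 and 2.12 in Lck-off, higher by 3.14 (SE 0.51, adjusted p = 0.0107). The Cxcl10 difference was 2.17 with normexp and 2.15 in the authors' deposited values. Its second probe was well above background on 0 of 3 WT arrays. Psmb9, an immunoproteasome subunit gene, read 5.71, 5.89 and 5.67 in WT against 6.27, 6.27, 6.37 and 6.43 in Lck-off, higher by 0.58 (SE 0.08, adjusted p = 0.00648).

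The lymphotoxin genes rose together. Lta read 1.22, 1.08 and 1.22 in WT against 1.70, 1.62, 1.59 and 1.60 in Lck-off, higher by 0.45 (SE 0.07, adjusted p = 0.00906). Ltb, the other chain of the lymphotoxin complex, rose by 0.35 (SE 0.07, adjusted p = 0.0226), the adaptor gene Traf1 by 0.46 (SE 0.10, adjusted p = 0.0284) and the survival gene Bcl2l1 by 0.53 (SE 0.12, adjusted p = 0.0380), and these 3 genes were named after their values were seen. Tnfrsf1b, the TNF receptor 2 gene, read 0.67, 0.41 and 0.62 in WT against -0.32, -0.43, 0.00 and 0.16 in Lck-off. All Lck-off arrays were below the WT arrays, and Tnfrsf1b fell by 0.71 (SE 0.16, adjusted p = 0.0348). Single arrays ended several of these calls. Ltb was called only without Lck-off 1 (adjusted p = 0.0375, otherwise 0.0507 to 0.0742), Tnfrsf1b and Bcl2l1 only without Lck-off 4 (adjusted p = 0.0263 and 0.0203, otherwise 0.0642 to 0.114 and 0.0811 to 0.121), and Traf1 only without Lck-off 1 or Lck-off 2 (adjusted p = 0.0200 and 0.0493, otherwise 0.0548 to 0.109). The count of targets called was 5 without WT 1, 5 without WT 2, 4 without WT 3 and 4 without Lck-off 3. Within each slide row the differences kept their sign, and with the row as a block Tnfrsf1b and Bcl2l1 were no longer called (adjusted p = 0.0681 and 0.0702). With array median scaling and with no filter Lta, Ltb, Traf1, Bcl2l1 and Tnfrsf1b were not called, nor was Psmb9 with median scaling (adjusted p = 0.0539).

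Cells other than CD8 T cells also express these genes, and some of their markers moved with the groups. Of 9 measured macrophage, monocyte and neutrophil markers (16 on the array) C1qb rose (adjusted p = 0.0469) and the other 8 did not pass, with a list median of 0.64. The summed linear level was 41.7 to 58.5 in WT against 51.5 to 61.3 in Lck-off, most of it from Itgam. Fcgr3 was below the background limit on every array. C1qa, C1qc and Mpeg1 differed by 1.38, 1.75 and 1.49. These genes, and Ciita among the dendritic cell markers, were well above background on 1 of 3 WT and 4 of 4 Lck-off arrays. They thus passed the filter only through Lck-off arrays, and they count in the medians of both lists. C1qb kept its call only without Lck-off 4 (adjusted p = 0.0344, otherwise 0.0627 to 0.144 with 1 array left out). Its difference of 0.59 fell to 0.21 with normexp (adjusted p = 0.200) and to 0.22 in the authors' deposited table (adjusted p = 0.129), and C1qb was called in 3 of the 14 settings that do not leave out 1 array in turn. Of 8 measured dendritic cell markers (11 on the array) 0 were called by limma (2 at an unadjusted p under 0.05), with a median of 0.97, summed levels of 245 to 266 in WT against 255 to 315 in Lck-off, most of it from Siglech, and Clec9a below the background limit on every array. H2-Ab1, H2-Eb1 and Cd74 differed by 1.40, 1.26 and 1.12 and Flt3 by -0.69, all named after their values were seen. The class II gene H2-Ab1 read -0.86, 0.64 and -0.93 in WT against 0.96, 2.25, 0.81 and 0.02 in Lck-off, highest on Lck-off 2. Lck-off 2 was the highest array for Nfkbie too, while the order of the other Lck-off arrays differed, and the part of these cells in the differences above was not tested. Of 7 B cell markers on the array 4 were measured and 0 were called by limma (0 at an unadjusted p under 0.05). Their summed levels were 12.2 to 14.3 in WT against 11.9 to 14.7 in Lck-off, most of it from Cd79b. The defining markers Ms4a1 and Pax5 were below the background limit on every array.

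Of 5 CD4 and regulatory T cell markers 4 were measured, and Ctla4 was below the background limit on every array. The summed levels were 16.9 to 17.7 in WT against 17.8 to 21.1 in Lck-off, most of it from Zbtb7b. Zbtb7b differed by 0.18 (adjusted p = 0.269), Cd4 by 0.04 (adjusted p = 0.892) and Foxp3 by 0.01 (adjusted p = 0.986). Ikzf2, the Helios transcription factor gene, was lower and the other 3 did not pass, with a median of 0.03. Ikzf2 read -1.96, -1.41 and -1.72 in WT against -4.00, -2.41, -3.43 and -3.73 in Lck-off, and it was well above background on only 2 of the 4 Lck-off arrays. It fell by 1.70 (adjusted p = 0.0318), and by 0.65 with normexp (adjusted p = 0.0101). With 1 array left out the Ikzf2 call was kept only without Lck-off 2 (adjusted p = 0.00465, otherwise 0.0577 to 0.112). Among the T cell markers the adaptor gene Lat rose by 0.27 (adjusted p = 0.0466), a call that ended with each single array left out (adjusted p = 0.0695 to 0.136). Of 6 NK cell markers 1 was measured, Gzmc, well above background on only 1 of 3 WT and 2 of 4 Lck-off arrays. Gzmc differed by 0.63 (adjusted p = 0.499), and Klri2 was below the limit on every array. Of 6 red blood cell and platelet markers 2 were measured, with a median of 1.15, summed levels of 0.16 to 1.83 in WT against 0.85 to 3.29 in Lck-off and the other 4 below the limit on every array. Of 8 stromal and endothelial markers 4 were measured, with a median of 0.19, summed levels of 1.89 to 2.03 in WT against 1.96 to 2.77 in Lck-off and 3 below the limit on every array. In these last 3 lists 0 genes were called by limma (1 at an unadjusted p under 0.05). The part of these cells was not tested either.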

How the data were processed

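RNA of 3 WT and 4 Lck-off samples was labelled with Cy3 from 50 ng each (RIN above 8) and hybridised to single-colour Agilent arrays, all on 1 slide. Per the file headers, the processed intensity came from Feature Extraction 10.7.3.1 (array design 028005, mm9 positions), background subtracted and detrended within each array; mean and background intensity columns were used for normexp alone. The authors' deposited values are on a log2 scale, judged from their range (medians 6.38 to 6.39), and no source used here gives the steps behind them beyond the submitters' processing notes, which name limma. Flags for background, saturation and uniformity come from the deposited files.

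The 75th percentile of each array, over spots that are not controls, was subtracted from its log2 processed intensities. Non-uniform spots were left out, repeat spots were averaged, and a probe was kept if it was well above background on 3 or more of the 7 arrays (25578 of 55681). The brightest kept probe stood for a gene (18231 of 34797 names). Groups were compared with limma 3.58.1 (R 4.3.3, with release 1.17.8 of data.table), two-sided, with Benjamini-Hochberg adjustment over all genes, or over all probes at the probe level. The fit was tested on simulated data. For a gene below the background limit on all WT arrays, each WT level was set no lower than the array's faintest probe well above background. The fold so found is not a lower bound.

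The members and gene lists were chosen with earlier results of these data known. Genes named were all members, up to 4 called genes of smallest p per direction in each list, and the 3 genes most like the member of smallest p; other genes, Lck aside, were named after their values were seen. Some list genes are not reported here by name. No label says that replicate numbers pair the samples, so no block was used in the main fit. As alternatives, the fit was repeated with normexp (offset 50), other scalings and filters, the deposited values, probes averaged, other moderation, weighted arrays, the replicate number or the slide row as a block, each row alone, outlier spots missing, and each array left out.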

Additional observations from a re-analysis of the deposited data

Results flagged for a closer look

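One level stood far from the others of its group. Rela read 6.953 on Lck-off 2, against 6.60 to 6.64 on the other 3 Lck-off arrays, a gap larger than Dixon's 95% critical value allows for 4 samples. It was the only 1 of 20 sets of Lck-off values tested to do so, and chance flags about 1 in 20 groups. Without Lck-off 2 Rela differed from WT by -0.09.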

How the results depend on the processing

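Nfkbie kept its direction under every alternative and every array left out, and no other member was called under any of them. The number of members called was 0 with array median scaling, with no filter, within slide row 1, within slide row 2 and with the replicate block, and 0 to 1 with 1 array left out. Samples of the same replicate number showed no clear pairing (correlations of deviations 0.106, 0.0492 and -0.00834, against -0.174 to 0.138 between different numbers). Of 6 samples 3 correlated best with their own number. So few samples cannot exclude a pairing. With the replicate block, which leaves out Lck-off 4, Nfkbie differed by 0.41 (adjusted p = 0.185), and 374 of all genes, 0 of the receptor-to-IKK route, 0 of the A20 partners and 1 of the kappaB targets were called. The genes called of all tested were 918 with array median scaling, 717 with no filter, 105 within row 1, 0 within row 2 by limma (2711 at an unadjusted p under 0.05) and 960 to 1405 with 1 array left out. Of called genes 45.4% were higher, against 51.6% with the replicate block and 81% within row 1. The receptor-to-IKK route gave 0 calls with median scaling and within rows 1 and 2. The A20 partners gave 1 with median scaling, 1 with no filter, 0 within each row and 1 to 3 with 1 array left out. The kappaB targets gave 2 with median scaling, 3 with no filter, 1 within row 1, 0 within row 2 and 4 to 7 with 1 array left out. The non-canonical list gave 1 call with the mean of all probes, and the other IkappaB-like list gave 1 with trended and robust moderation. Signs turned only for members that were not called. Rela differed by 0.0075 with normexp, 0.024 with the replicate block, 0.022 within row 1, and -0.094 to 0.024 with 1 array left out. Nfkbib differed by -0.0098 with the mean of all probes, Nfkb2 by -0.0066 and Nfkbiz by -0.10 within row 1, and Nfkb1 by 0.037 within row 2. With 1 array left out Nfkbiz ranged from -0.034 to 0.226 and Nfkb1 from -0.142 to 0.013. Fitted Il2ra differences, from a WT level at background, were 1.00 with normexp and 1.03 in the deposited table, against 3.17. The cause of these changes was not tested. Relb had adjusted p of 0.0859 to 0.730 and Nfkbia of 0.0730 to 0.636 over the alternatives. With 3 and 4 arrays the median SE of a difference was 0.111.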
